A study of Homo sapiens with 2 samples.

Results

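The cells described here are the HMOX1-rich end of a culture of HUVECs, primary endothelial cells from the human umbilical vein. HMOX1 (chr22:35380361-35394214, plus strand, GRCh38) encodes heme oxygenase-1. Cell barcodes with at least 5000 unique molecular identifiers (UMIs, each 1 counted RNA molecule) and at most 10% mitochondrial UMIs were ranked by the HMOX1 share of their UMIs, both libraries together, and the top 10% were taken as members. These were 214 of 2138 ranked barcodes, out of 5493 barcodes in all. The members are 1 end of a continuous range and not a cell type of their own.

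The HUVECs had lined 50 µm channels of a microfluidic device for about 48 hours and were then perfused with red blood cells for 4 hours. The hRBC library is from cells that met healthy red cells alone. For the 5% pdRBC library, 5% of the red cells were first dehydrated in sucrose with the ionophore nystatin, to a mean hemoglobin concentration of 40 to 42 g/dL, which stiffens them; the rest of that suspension was healthy. The number of HUVEC donors is not given in the sources used here. Each treatment is 1 library of 10x Genomics 5′ single-cell RNA, so library and treatment cannot be told apart, and differences are given without tests. Fold intervals are exact 95% intervals of the split of UMIs and cover counting error only, with neither the spread between cells nor that between devices. Intervals of shares of barcodes take barcodes as independent and also leave out the spread between devices.

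Heme oxygenase-1 opens the heme ring to biliverdin, carbon monoxide and iron. Its transcription is held down by BACH1, which heme removes, and driven by NRF2, which oxidants and electrophiles release from KEAP1. Endothelial cells also raise it under laminar shear and under inflammatory stimuli, and iron set free from heme is stored in ferritin. The series asks how endothelium responds when stiffened red cells are present in small numbers, and the HMOX1-rich cells are those in which the RNA of this stress enzyme took the greatest share.

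Several of the RNAs described below are host RNAs of microRNAs. Of those shown, 4 were called higher in members, and MIR31HG, a marker given for these cells, was not. They are shown with some of the mature microRNAs that lie within them (RefSeq, GRCh38.p14, 5′ to 3′). The seed, bases 2 to 8, is in capitals. MIR100HG, for example, also holds hsa-miR-125b-5p and hsa-let-7a-5p, which are not shown. The microRNAs themselves were not measured, only the host RNAs.
hsa-miR-221-3p (MIR222HG, chrX:45746180-45746202, minus): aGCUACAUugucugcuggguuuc
hsa-miR-222-3p (MIR222HG, chrX:45747036-45747056, minus): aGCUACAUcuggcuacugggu
hsa-miR-22-3p (MIR22HG, chr17:1713914-1713935, minus): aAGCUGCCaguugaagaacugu
hsa-miR-155-5p (MIR155HG, chr21:25573983-25574006, plus): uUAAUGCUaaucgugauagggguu
hsa-miR-100-5p (MIR100HG, chr11:122152275-122152296, minus): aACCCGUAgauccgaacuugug
hsa-miR-31-5p (MIR31HG, chr9:21512158-21512178, minus): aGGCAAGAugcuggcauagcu
The first pair carry the same seed, GCUACAU, and the others each have a seed of their own.

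Of the 15 RNAs furthest above the remaining cells, 11 had a promoter in the RefSeq table. Those of the oxidative stress gene OSGIN1 and the long noncoding RNA LUCAT1 are shown because they are the 2 that hold AP-1 letters. The windows run from 250 bases before to 50 bases after the transcript start (RefSeq, GRCh38.p14, 5′ to 3′). Both strands were searched for TGANTCA, the AP-1 motif, and TGACNNNGC, the core of the antioxidant response element that NRF2 binds, which can overlap it. Matches are in capitals.
OSGIN1 (chr16:83952990-83953289, plus): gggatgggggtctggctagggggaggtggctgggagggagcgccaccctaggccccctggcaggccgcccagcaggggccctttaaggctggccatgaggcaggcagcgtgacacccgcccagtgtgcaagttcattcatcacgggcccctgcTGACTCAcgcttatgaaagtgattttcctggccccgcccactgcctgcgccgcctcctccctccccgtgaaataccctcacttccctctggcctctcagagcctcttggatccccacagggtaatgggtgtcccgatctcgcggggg
LUCAT1 (chr5:91314353-91314652, minus): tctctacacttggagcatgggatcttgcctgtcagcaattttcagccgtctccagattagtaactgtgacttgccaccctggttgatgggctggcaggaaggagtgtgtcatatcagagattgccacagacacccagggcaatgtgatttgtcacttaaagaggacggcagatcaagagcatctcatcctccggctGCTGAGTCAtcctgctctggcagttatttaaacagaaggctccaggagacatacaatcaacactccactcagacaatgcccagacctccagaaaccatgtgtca
The OSGIN1 window holds 1 AP-1 match, 97 bases before the start, and the LUCAT1 window holds an AP-1 match inside a match to the element core. Of all 27305 promoters in the table, 7.76% held the AP-1 letters and 13.6% the element core. Among the genes that were higher in members by the rule given below, 19 of 162 promoters (11.7%) held AP-1 letters and 27 (16.7%) the core, and among the lower genes 12 of 404 (2.97%) and 50 (12.4%). A match says only that these letters are present.

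The HMOX1 share that chose the members had a median of 0.223% of a cell's UMIs in the 64 hRBC members (0.182% to 0.589%) and 0.240% in the 150 5% pdRBC members (0.180% to 0.657%). Among the remaining barcodes the medians were 0.0390% in hRBC and 0.0363% in 5% pdRBC. Summed over cells, HMOX1 stood at 2518 and 2718 CPM (UMIs per 1000000 summed UMIs) in members and at 489 and 518 CPM in the rest. The range had no gap at the threshold, which passed between 0.178% and 0.180%, with 42 barcodes within 10% below it and 32 within 10% above. No HMOX1 UMI was seen in 71 remaining hRBC and 171 remaining 5% pdRBC barcodes.

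Members made up 8.32% of the ranked hRBC barcodes (64 of 769; exact binomial 95% interval 6.47 to 10.5). In 5% pdRBC they made up 11% (150 of 1369; 9.35 to 12.7). The ratio of these shares was 1.32 (Katz log interval 0.996 to 1.74), which covers equality. These intervals take barcodes as independent, although members were ranked over both libraries together. With 1 library per treatment they cannot decide whether the treatments differ. With every cell thinned to 5000 UMIs before ranking, the shares were 8.71% and 10.7% and 165 of the 214 members were the same barcodes. The ranking left out 3089 hRBC barcodes and 266 of 5% pdRBC, all but 1 of them for too few UMIs, in which HMOX1 stood at 693 and 506 CPM against 661 and 782 CPM in the ranked ones. The share of members is therefore a share of well-sequenced cells.

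The libraries held 14321939 (hRBC) and 16158876 (5% pdRBC) UMIs. Members were not much deeper than the rest, with median UMIs of 12972 against 12258 in hRBC and 11627 against 10133 in 5% pdRBC, and their mitochondrial percentages were 1.59 against 1.82 and 1.56 against 1.84. The libraries shared 9 barcode sequences, none of them a member. The members carried endothelial markers (all levels here are not scaled for gene length): PECAM1 stood at 605 and 588 CPM and CDH5, the endothelial cadherin, at 636 and 669 CPM. Markers of other cell types were near 0. Over the 12 erythroid, 8 T and NK cell, 6 B cell, 7 neutrophil and 6 platelet genes only BPGM, which red cells and other cells use, reached 100 UMIs, and the T and NK cell genes summed to 4.74 and 4.86 CPM in members. Of 10 monocyte and macrophage genes only CD68, a lysosomal protein gene, did (39.1 and 59.9 CPM in members, 29.6 and 28.9 in the rest), while 4 of the list were at 0. Of 10 fibroblast and mural genes PDGFRA and RGS5 did, and the list summed to 467 and 357 CPM in members against 363 and 331 CPM in the rest, nearly all of it RGS5, which HUVECs also express; its part in the results was not tested.

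Members were compared with the remaining barcodes of their own library (705 in hRBC, 1219 in 5% pdRBC) over 10702 genes with at least 100 UMIs, leaving out HMOX1. A gene was called where it was at least 1.5-fold higher, or lower, in members in both libraries. By this rule 223 genes (2.08%) were higher and 531 (4.96%) lower, and the median log2 fold was -0.02 in hRBC and -0.01 in 5% pdRBC on this scale, which fixes each group's total. In 125 of the higher and 235 of the lower genes both intervals left out 1. Of the lower genes 50 had 0 UMIs in the members of a library, and 512 stayed lower with such genes held at 3 counts. The folds of the libraries had a Pearson correlation of 0.412 across genes, which are not independent replicates, and 113 genes passed 1.5-fold in opposite directions.

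**Figure D1:**
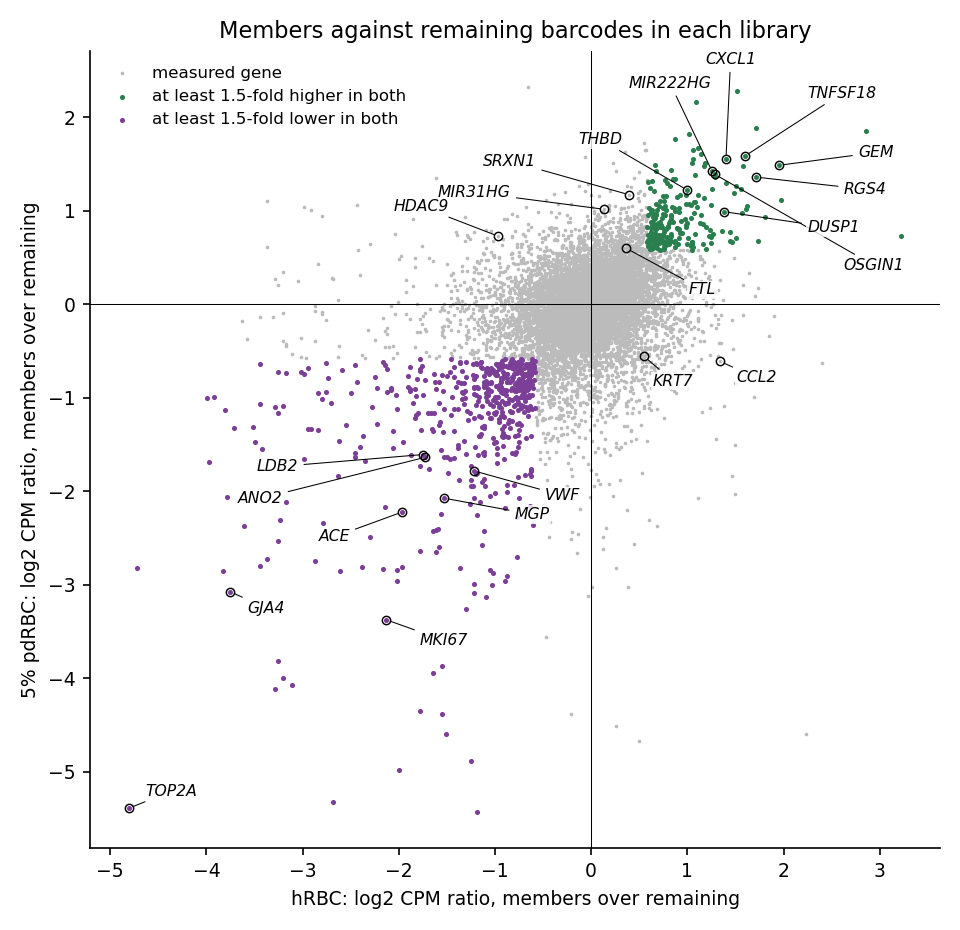
Log2 ratio of CPM, members over remaining barcodes, in hRBC (x axis) and 5% pdRBC (y axis), with each point 1 of 10702 measured genes. Green points are the 223 genes at least 1.5-fold higher in both libraries, purple points the 531 lower, and circles mark named genes; genes with 0 UMIs in members, such as TOP2A, are drawn with 0.5 UMI added and are bounds in the text.

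The 15 RNAs furthest above the rest in both libraries included RGS4, GEM, TNFSF18, TNFRSF6B, PTHLH, OSGIN1, MIR222HG, LUCAT1 and HIF1A-AS3. RGS4, which shortens signals through G proteins of the Gq and Gi classes, stood at 259 CPM in hRBC members against 78.8 CPM in the rest (3.29-fold, 2.81 to 3.82) and at 202 against 78.7 CPM in 5% pdRBC (2.57-fold, 2.27 to 2.89). No other of the 11 measured RGS genes was called: RGS5, for example, was 1.29-fold (1.16 to 1.44) and 1.07-fold (0.983 to 1.16) higher. GEM, a small GTPase induced by stimulation that restrains calcium channels, was 3.87-fold (2.48 to 5.79) and 2.80-fold (2.25 to 3.46) higher, although 1 barcode gave 34.4% of the hRBC members' GEM UMIs. TNFSF18, the ligand of the receptor GITR, stood at 33.2 against 11.1 CPM in hRBC and 36.2 against 12.1 CPM in 5% pdRBC (3.03- and 3.00-fold). TNFRSF6B, a soluble decoy receptor for Fas ligand, was 2.99- and 2.78-fold higher. PTHLH, the gene of parathyroid hormone-related protein, was 2.13-fold (1.44 to 3.01) higher in hRBC and 4.48-fold (3.68 to 5.44) in 5% pdRBC. The others of the 15 highest genes included the tight junction gene CLDN14 (2.25- and 2.79-fold), TBC1D2, HRCT1 and C11orf96.

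Among 22 measured long noncoding RNAs and microRNA host RNAs 5 were called higher and none lower, against 2.08% of all genes. MIR222HG, host of miR-221 and miR-222, stood at 74.7 against 31.5 CPM in hRBC (2.39-fold, 1.78 to 3.13) and 106 against 39.4 CPM in 5% pdRBC (2.69-fold, 2.27 to 3.17). MIR100HG was 1.86- and 2.21-fold higher, MIR155HG 1.81- and 1.84-fold, and the log2 fold of MIR22HG was 0.85 and 1.34. LUCAT1 stood at 23.7 against 10.7 CPM and 54.5 against 19.1 CPM (2.27- and 2.86-fold). HIF1A-AS3, antisense to the hypoxia factor gene HIF1A, was 3.92-fold (2.88 to 5.23) and 2.17-fold (1.67 to 2.78) higher. Whether counting used strand is not given in the sources used here, so LUCAT1 and HIF1A-AS3 cannot be told apart from RNA of the opposite strand. RGS4, MIR222HG and MIR31HG had been given as markers of these cells with earlier results known, and MIR31HG was not called: it was 1.1-fold (0.908 to 1.32) higher in hRBC, at 153 against 140 CPM, and 2.02-fold (1.83 to 2.23) higher in 5% pdRBC, at 285 against 141 CPM.

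NRF2 targets, the antioxidant genes that share HMOX1's activator, were above the rest as a group but by small steps. Of 30 measured, 3 were called higher and none lower, against 2.08% and 4.96% of all genes. A log2 fold above 0 in both libraries was seen for 21 of them, and that share over all genes is not given here. The list's median was 0.36 against -0.02 over all genes. OSGIN1, an oxidative stress growth inhibitor, stood at 103 against 42.6 CPM in hRBC (2.43-fold, 1.90 to 3.06) and 99.8 against 38.1 CPM in 5% pdRBC (2.63-fold, 2.20 to 3.11). AKR1C1, a carbonyl reductase, was 2.08-fold (1.14 to 3.44) and 2.93-fold (1.98 to 4.22) higher, on 17 and 41 member UMIs, and is 1 of several near-identical genes. SQSTM1, the autophagy receptor p62, was 1.59-fold (1.46 to 1.72) and 1.69-fold (1.61 to 1.78) higher. Other well-known targets of NRF2 were not called. SRXN1, which repairs oxidised peroxiredoxins, was 1.31-fold (1.15 to 1.48) higher in hRBC and 2.25-fold (2.10 to 2.41) in 5% pdRBC. GCLM, a subunit of the enzyme that makes glutathione, was 1.35- and 1.70-fold higher, and the quinone reductase gene NQO1 1.53- and 1.21-fold. The thioredoxin reductase gene TXNRD1 (1.15- and 1.23-fold) and the cystine transporter gene SLC7A11 (1.16- and 1.31-fold) differed less than the targets just named. The lowest mean log2 fold of the 30 was -0.11. NFE2L2, which encodes NRF2 itself, had log2 folds of 0.00072 and 0.23, KEAP1 0.22 and 0.51, and BACH1, the repressor of HMOX1, -0.24 and 0.71.

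Genes of heme breakdown and iron handling other than HMOX1 did not stand apart as a group. Of 27 measured, 0 were called higher and 1 lower, against 2.08% and 4.96% of all genes, with a median of 0.06. Ferritin was the exception in abundance. FTL, the light chain, stood at 35356 against 27411 CPM in hRBC (1.29-fold, 1.27 to 1.31) and 48613 against 32114 CPM in 5% pdRBC (1.51-fold, 1.5 to 1.52), and FTH1, the heavy chain, was 1.21- and 1.33-fold higher. Over single cells, the median of both ferritin genes together was 75240 CPM in hRBC members against 54781 in the rest, and 96038 against 63098 in 5% pdRBC. Of the enzymes that act on biliverdin, the product of HMOX1, BLVRB was 1.70-fold (1.37 to 2.07) higher in hRBC and 1.15-fold (0.965 to 1.36) in 5% pdRBC. BLVRA was 1.21-fold (0.653 to 1.97) higher in hRBC and 1.1-fold (0.729 to 1.78) lower in 5% pdRBC. Both BLVRA intervals covered 1. HMOX2, the constitutive heme oxygenase gene, was 1.25- and 1.23-fold higher. SLC40A1, the iron exporter ferroportin, was 1.06-fold (0.684 to 1.80) lower in hRBC, at 23.7 against 25.7 CPM, and 3.11-fold (2.04 to 5.26) lower in 5% pdRBC, at 10.8 against 34.4 CPM. TFRC, the transferrin receptor gene, was 1.4-fold higher in hRBC and 1.08-fold lower in 5% pdRBC. PPOX, of heme synthesis, was the 1 gene called lower, on 1 and 4 member UMIs.

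Immediate early genes, transcribed within minutes of a stimulus, were higher in members. Of 14 measured, 6 were called higher and none lower, against 2.08% of all genes, with a median log2 fold of 0.65. The median was 0.18 without cluster 3 and 0.099 within cluster 1, both described below. DUSP1, a phosphatase that switches off MAP kinases, stood at 225 against 86.8 CPM in hRBC (2.6-fold, 2.21 to 3.05) and 301 against 151 CPM in 5% pdRBC (1.99-fold, 1.81 to 2.18). ATF3, a stress transcription factor, was 2.97- and 1.96-fold higher, FOS, an AP-1 subunit, 2.19- and 1.83-fold, and EGR1 1.96- and 1.89-fold. JUN and JUNB completed the 6. Of 24 genes of ERK feedback and delayed AP-1 response 5 were higher and 1 lower, against 2.08% and 4.96% of all genes. DUSP5 and DUSP6, nuclear and cytosolic ERK phosphatases, had folds of 1.69 and 2.16 and of 1.93 and 1.69. PLAUR, the urokinase receptor, was 1.88- and 1.75-fold higher.

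Chemokine RNAs were higher too, in part from single barcodes. Of 10 measured chemokines and cytokines 5 were called higher and none lower, against 2.08% of all genes, with a median of 0.67. CXCL1, which draws neutrophils, stood at 83.0 against 31.6 CPM in hRBC (2.64-fold, 1.99 to 3.42) and 45.9 against 15.7 CPM in 5% pdRBC (2.93-fold, 2.24 to 3.77). For CXCL1 1 barcode gave 12.9% of the hRBC and 28.2% of the 5% pdRBC member UMIs. CXCL8, interleukin-8, was 2.34- and 1.66-fold higher, but 1 barcode gave 48.6% of its hRBC member UMIs, and 1 barcode gave 52.4% of the CXCL3 UMIs of 5% pdRBC members. Over single cells, the median of CXCL1, CXCL2, CXCL3 and CXCL8 together was 0 in members and in the rest of both libraries, and the upper quartile was 184 and 185 CPM in members (hRBC and 5% pdRBC) against 0 in the rest. ICAM1, the ligand of leukocyte integrins, was the only called gene of 9 adhesion receptors (2.76- and 1.58-fold), with 38.8% of its hRBC member UMIs from 1 barcode. TNFAIP3, the NF-kB inhibitor A20, was the only one of 15 NF-kB genes (3.07- and 2.07-fold), with 34.8% of its 23 hRBC member UMIs and 18.2% of its 44 in 5% pdRBC from 1 barcode.

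Lists of flow, stress and metabolism had no more than 2 genes called higher each, against 2.08% of all genes. KLF2, the transcription factor that laminar shear induces, stood at 223 against 141 CPM in hRBC (1.58-fold, 1.35 to 1.84) and 263 against 139 CPM in 5% pdRBC (1.89-fold, 1.71 to 2.09). THBD, the thrombin receptor thrombomodulin and a target of KLF2, was 1.99- and 2.34-fold higher. With CYP1A1, which was lower on 2 UMIs in the members of each library, these were the called genes of 11 laminar shear genes. MT2A, an abundant metallothionein that binds zinc, stood at 6625 against 4243 CPM and 5924 against 3107 CPM (1.56- and 1.91-fold), as 1 of a family of similar genes. The amino acid transporter gene SLC7A5 (1.57- and 2.32-fold) and the stress phosphatase subunit gene PPP1R15A (1.54- and 1.71-fold) were called among 13 integrated stress genes, against 0 of 16 endoplasmic reticulum chaperone genes. Of 21 glycolysis and hypoxia genes ADM, the vasodilator adrenomedullin (2.37- and 2.09-fold), and SLC2A3, a glucose transporter gene (1.67- and 1.95-fold), were called. The single genes called among 18 p53 targets (GDF15, 1.65- and 1.64-fold) and 14 heat shock genes (DNAJA1, 1.53-fold in both) do not set these lists apart from that share. ANKRD1 (1.66-fold in both) and AJUBA (2.29- and 1.5-fold) were called among 15 YAP/TAZ targets, and the keratin genes KRT18 (2.37- and 1.58-fold) and KRT19 (1.82- and 2.53-fold) among 4 epithelial genes. None of 23 nuclear respiratory chain genes was called.

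**Figure D2:**
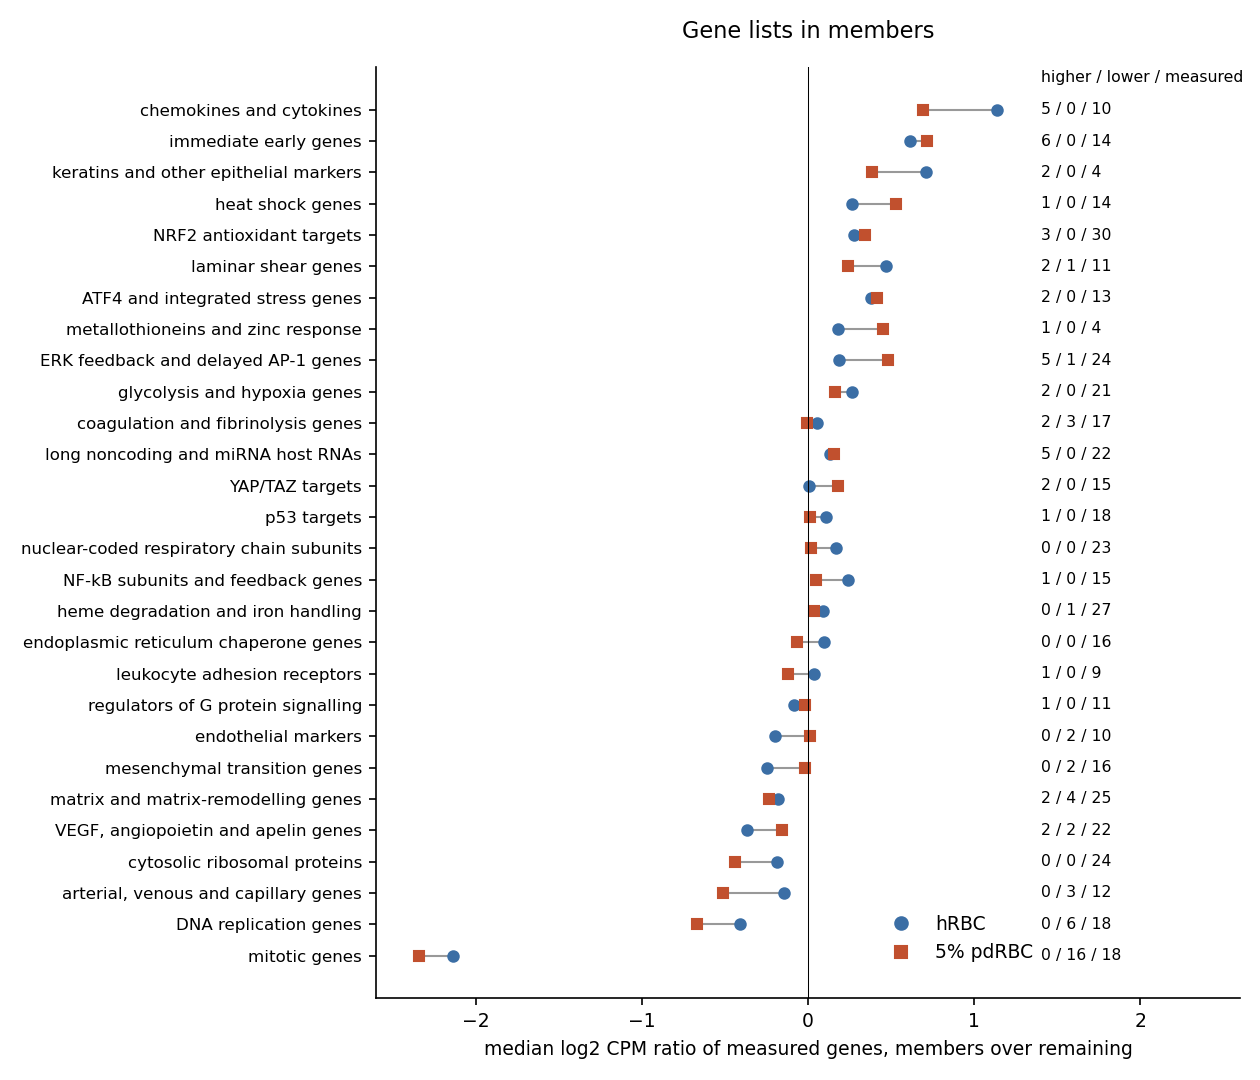
Median log2 CPM ratio, members over remaining barcodes, of the measured genes of each list with at least 4 of them, in hRBC (blue circles) and 5% pdRBC (red squares). Numbers on the right give how many genes of the list were called higher, called lower and measured; chemokines and immediate early genes lie to the right and mitotic genes, with 16 of 18 lower, far to the left.

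Among the genes lower in members were 2 of 10 endothelial markers and 4 of 25 matrix genes, of which 2 were higher, against 4.96% lower and 2.08% higher of all genes. VWF, the platelet-tethering factor stored in endothelial granules, stood at 173 against 403 CPM in hRBC (2.32-fold lower, 1.97 to 2.77) and 135 against 467 CPM in 5% pdRBC (3.44-fold lower, 3.04 to 3.93). EMCN, the sialomucin endomucin, was 1.84- and 1.78-fold lower. With VWF it made up the called endothelial markers, and the list's median was -0.12: PECAM1 was 1.21-fold lower in both, and ESAM 1.2- and 1.30-fold higher. MGP, a calcification inhibitor, stood at 117 against 341 CPM (2.89-fold lower, 2.38 to 3.59) and 104 against 440 CPM (4.21-fold lower, 3.66 to 4.90), and 40.4% of its hRBC member UMIs came from 1 barcode. Over single cells the median of MGP and FABP4 together was 0 in the members of both libraries, against 131 and 118 CPM in the rest.

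The matrix list had a median of -0.21. COL4A1, a collagen IV chain, was 2.16-fold (1.80 to 2.65) and 1.70-fold (1.51 to 1.92) lower, and NID1, nidogen, 2.32- and 1.74-fold lower, while ADAMTS9, a matrix protease, was 1.72- and 2.01-fold higher and LOX had log2 folds of 0.71 and 0.88. ACE, the angiotensin-converting enzyme, stood at 8.30 against 34.8 CPM (3.92-fold lower, 2.01 to 10.5) and 9.71 against 46.6 CPM (4.68-fold lower, 3.01 to 8.15). LDB2, a LIM-domain cofactor of transcription, was 3.35-fold (2.46 to 4.81) and 3.05-fold (2.56 to 3.69) lower. ANO2, a calcium-activated chloride channel, was 3.3- and 3.11-fold lower, and PIEZO2, a mechanically gated channel, 2.90- and 3.11-fold lower. Of 22 angiogenic ligands and receptors, NRP1, a VEGF co-receptor (1.63- and 2.22-fold), and PDGFB (1.58- and 1.87-fold) were lower, and ANGPTL4 (1.59- and 1.66-fold) and APLN, the apelin ligand (1.58- and 1.95-fold), higher. Of all genes 4.96% were lower and 2.08% higher. GJA5 and GJA4, connexins of arterial endothelium, were nearly absent: GJA5 had 0 UMIs in the members of both libraries, which 3 counts per library put at least 1.61-fold and 2.87-fold lower. No cytosolic ribosomal protein gene of 24 was called, but 23 were lower in both libraries, with a median of -0.31. The share of all genes lower in both is not given here. RPL3, for example, was 1.27- and 1.61-fold lower.

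Cell division genes had the lowest median of the lists, but not under every alternative. Of 18 measured mitotic genes 16 were called lower and none higher, against 4.96% of all genes, and the median log2 fold was -2.10, or -1.88 with genes at 0 UMIs held at their bound. TOP2A, which untangles chromosomes, had 0 UMIs in all 214 members against 16.5 and 11.3 CPM in the rest (at least 4.64- and 6.97-fold lower, at 3 counts per library). UBE2C had 2 and 7 member UMIs (9.41-fold, 3.22 to 97.5, and 4.97-fold, 2.54 to 13.3, lower), and the 5 MKI67 UMIs of hRBC members came from 1 barcode. Of 18 DNA replication genes 6 were lower, among them RRM2, the small subunit of ribonucleotide reductase, with 13.0 against 32.5 CPM in hRBC, where 1 barcode gave 90.9%, and 0.540 against 23.9 CPM in 5% pdRBC. Barcodes with at least 0.1% of UMIs from both lists were 2 of 64 hRBC members (3.13%; exact binomial limits 0.381 and 10.8) against 15.7% (13.1 to 18.6) of the rest. In 5% pdRBC they were 8 of 150 members (5.33%, 2.33 to 10.2) against 11.1% (9.37 to 13.0). With each barcode thinned to 5000 UMIs they were 4.69% against 16.6% and 8.00% (4.20 to 13.6) against 12.4% (10.6 to 14.4). The intervals for 5% pdRBC overlapped with and without thinning. Sums and typical cells differed in direction: over single cells, the median of the mitotic genes was 137 CPM in hRBC members against 98.4 in the rest, and 134 against 97.4 in 5% pdRBC. Without the barcodes past 0.1% the mitotic list's median turned to 0.59 and the replication list's was -0.033, and within cluster 1, described below, they were 0.33 and 0.38. Without those barcodes CLSPN, GINS2, TPX2 and AURKB took the opposite sign.

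For some genes the level also varied below the members, along the HMOX1 ranking. From the top to the bottom 10% of barcodes, VWF went from 173 to 516 CPM in hRBC and from 135 to 706 CPM in 5% pdRBC. OSGIN1 went the other way, from 103 to 31.8 CPM in hRBC and from 99.8 to 21.8 CPM in 5% pdRBC, and SRXN1 went from 335 to 184 CPM and from 585 to 170.5 CPM. SRXN1 of hRBC was at 335 CPM in members and 337 CPM in the bin after them. In the same bins of hRBC, FTL was at 35356 and 35650 CPM and FTH1 at 36540 and 37231 CPM. Other genes had no such course: CXCL1 of hRBC stood at 83.0 CPM in members and at 121 CPM in bin 7 of 10, and MIR31HG of hRBC at 153 CPM in members and 174 CPM in bin 8. Bin 10 held only barcodes without an HMOX1 UMI, 42 of hRBC and 171 of 5% pdRBC. In hRBC 71 barcodes had none, and the others of these fell in bin 9 by file order. Bin 10 was also shallower than the members, with median UMIs of 9786.5 against 12972 in hRBC and 8206 against 11627 in 5% pdRBC. A bin of 1 library has no replicate.

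**Figure D3:**
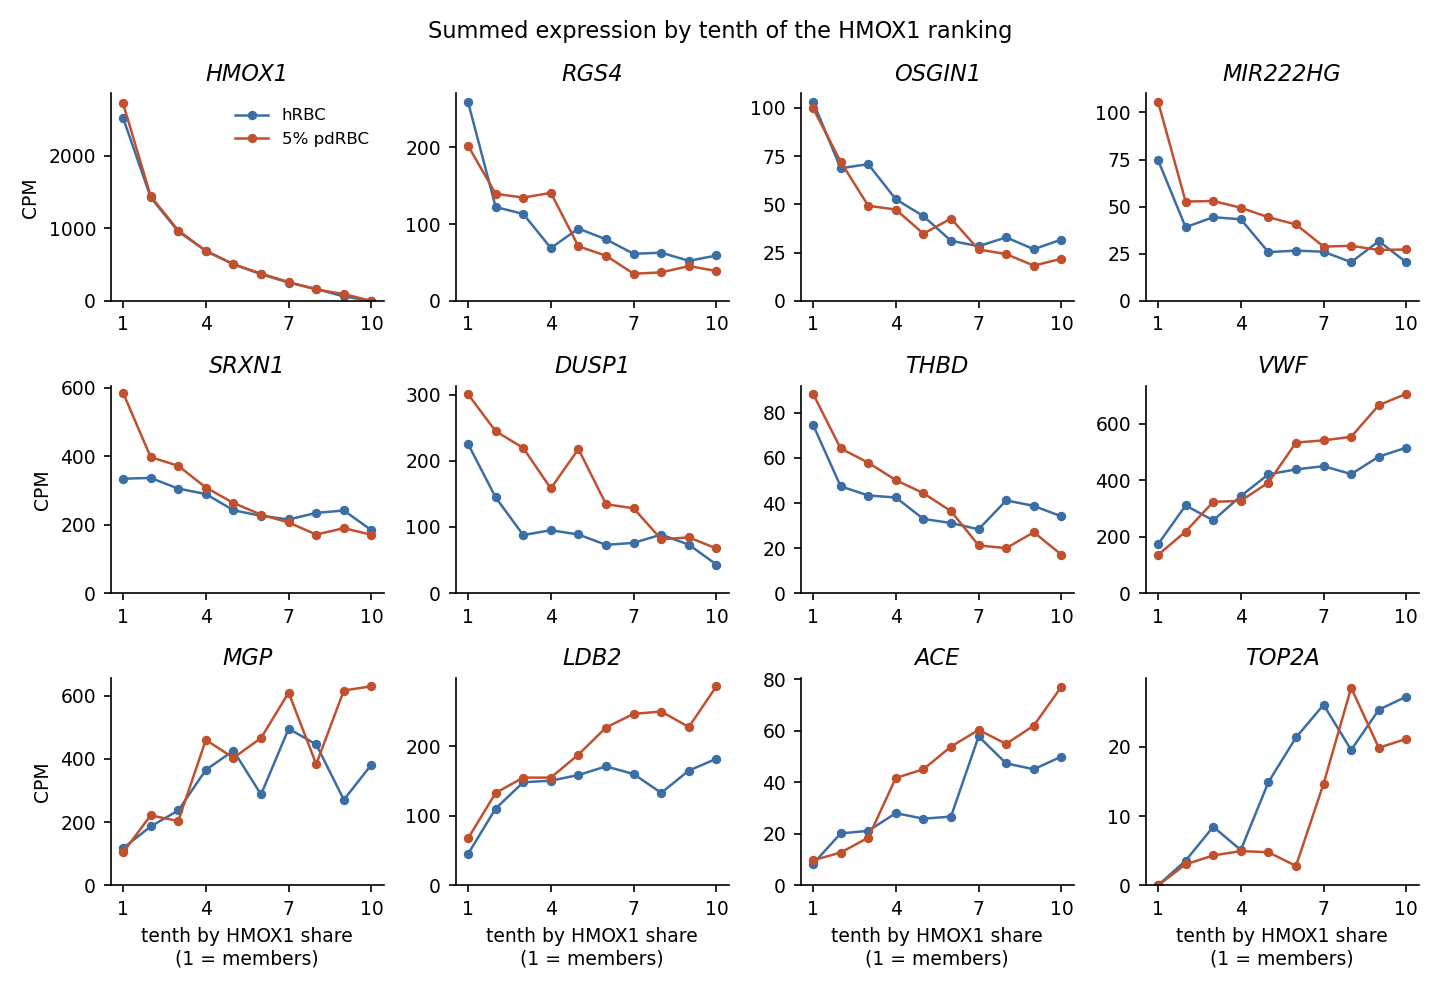
Summed CPM of 12 genes in each 10% of the ranked barcodes by HMOX1 share (x axis, 1 = members, 10 = share of 0, which some hRBC barcodes in 9 also have), in hRBC (blue) and 5% pdRBC (red). HMOX1, by which the barcodes were ranked, falls by construction; RGS4, OSGIN1, MIR222HG, DUSP1 and THBD are highest in the members of both libraries, SRXN1 in those of 5% pdRBC, and VWF, MGP, LDB2, ACE and TOP2A lowest.

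Other ways of ranking the same 2138 barcodes overlapped with this one in part. Of members, 29.4% were also in the top 10% by the summed NRF2 list, against 7.85% of the rest, 30.8% in that by RGS4 (7.69%), 28% in that by both ferritin genes (8.00%) and 25.7% in that by KLF2 and THBD (8.26%). For immediate early genes these shares were 22.4% and 8.63%, and for VWF 0.935% and 11%. Thinned to 5000 UMIs they were 25.7% (NRF2 list), 26.6% (RGS4), 27.6% (ferritin), 23.4% (KLF2 and THBD), 21.0% (immediate early genes) and 0.935% (VWF) of members. By library, without thinning, the ferritin overlap was 7.81% of hRBC members (4.68% of the rest) and 36.7% of 5% pdRBC members (9.93%). That of immediate early genes was 7.81% (2.13%) and 28.7% (12.4%), and that of RGS4 34.4% (7.52%) and 29.3% (7.79%). Most members were thus outside the top 10% of each of these rankings.

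When the ranked barcodes were clustered on all genes but HMOX1, most members of each library lay in 3 of 7 clusters. Cluster 1, led by HIF1A-AS3, TNFRSF6B, HRCT1, TBC1D2 and RGS4, held 35 of 64 hRBC (54.7%) and 63 of 150 5% pdRBC members (42.0%). Cluster 3, led by AMPD3, EGR1, GEM, TESK2 and FOSB, held 6 hRBC (9.38%) and 62 5% pdRBC members (41.3%), and had 29 hRBC and 195 5% pdRBC barcodes in all. Members were 14.1% and 21.5% of the cluster 1 barcodes and 20.7% and 31.8% of those in cluster 3. Cluster 2, led by FABP4 and MGP, held 14 members of each library, 21.9% of the hRBC and 9.33% of the 5% pdRBC members. Cluster 4, the largest with 719 barcodes and led by DACH1, GPC5, LIMCH1, MAGI1 and LDB2, held 6 and 5 members, and cluster 0, led by mitotic genes, 3 and 1. Without cluster 3, members were 7.84% of hRBC and 7.5% of 5% pdRBC barcodes, a ratio of 0.956. Within cluster 1 the ratio was 1.53.

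**Figure D4:**
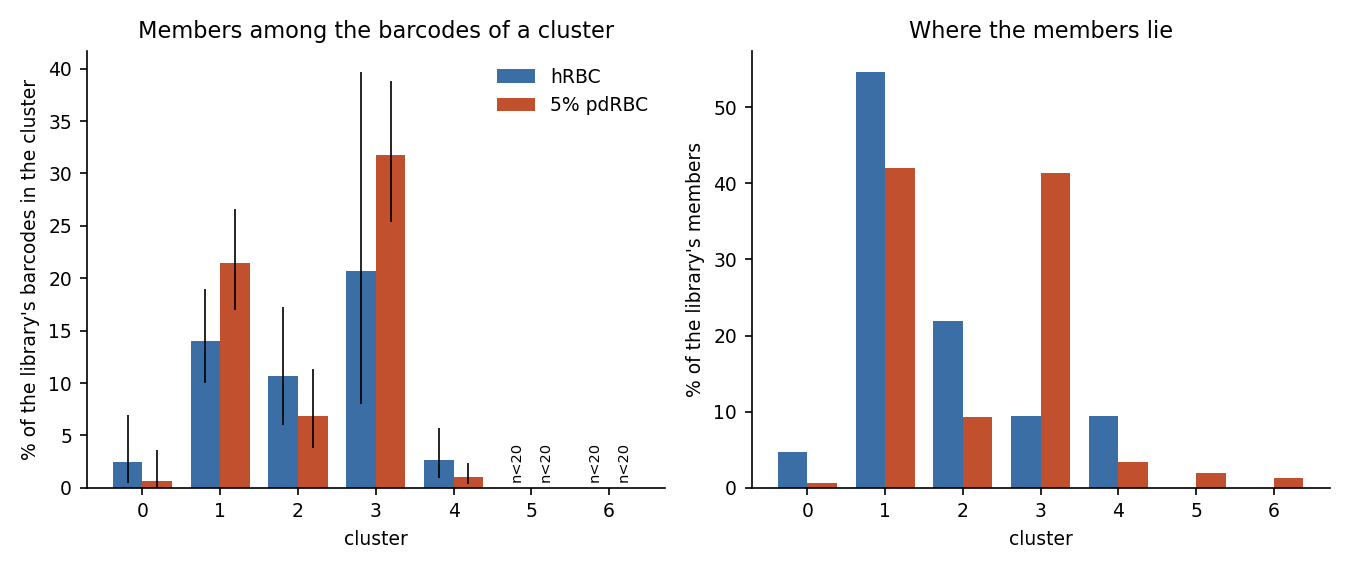
Left, members as a percentage of each library's barcodes in each of 7 clusters made without HMOX1, with exact 95% binomial intervals; clusters 5 and 6 had fewer than 20 barcodes in each library and no bar is drawn. Right, the percentage of each library's members that lay in each cluster; clusters 1 and 3 hold most of the 5% pdRBC members and clusters 1 and 2 most of the hRBC members.

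Some of these differences were also seen inside clusters. Within cluster 1 members were still higher than the other barcodes of the cluster in OSGIN1 (2.21-fold, 1.52 to 3.11, in hRBC and 1.72-fold, 1.27 to 2.29, in 5% pdRBC) and in MIR222HG (1.78- and 1.52-fold), and within cluster 3 of 5% pdRBC in SRXN1 (1.79-fold, 1.60 to 2.01), OSGIN1 (1.48-fold) and FTL (1.51-fold). VWF was 2.05- and 1.86-fold lower in the members of cluster 1 and 1.98-fold (1.56 to 2.57) lower in those of cluster 3. Immediate early genes differed by cluster and library. Within cluster 1 of hRBC, DUSP1 was 1.52-fold (1.12 to 1.99) and ATF3 1.64-fold (0.863 to 2.79) higher in members. Within cluster 1 of 5% pdRBC, DUSP1 was 1.08-fold (0.856 to 1.35) higher and ATF3 1.13-fold (0.712 to 1.93) lower. Inside cluster 3 of 5% pdRBC, DUSP1 was 1.17-fold (1.05 to 1.32), ATF3 1.19-fold (1.04 to 1.37) and EGR1 1.38-fold (1.19 to 1.62) lower there. Within cluster 1 MIR31HG was 1.30-fold (1.01 to 1.72) lower in hRBC members and 1.05-fold (0.907 to 1.23) lower in 5% pdRBC members, and within cluster 3 of 5% pdRBC it was 1.07-fold (0.926 to 1.24) higher. RGS4 within cluster 1 was 2.24-fold (1.81 to 2.74) higher in hRBC and 1.12-fold (0.919 to 1.35) in 5% pdRBC. GEM, a leading gene of cluster 3, was 1.22-fold (0.967 to 1.56) lower in the 5% pdRBC members of that cluster. In cluster 1 GEM was 1.06-fold (0.369 to 6.30) lower in hRBC members, on 3 UMIs, and 2.70-fold (1.44 to 4.96) higher in 5% pdRBC members. In the same cluster HIF1A-AS3, one of its leading genes, was 4.76-fold (3.28 to 6.82) and 1.31-fold (0.909 to 1.84) higher in hRBC and 5% pdRBC members. TBC1D2, another, was 1.32-fold (0.745 to 2.13) and 2.18-fold (1.48 to 3.15) higher, and PTHLH 1.43-fold (0.778 to 2.38) and 3.01-fold (2.13 to 4.25). MGP was 8.69-fold, on 3 UMIs, and 2.04-fold lower there, and 1.18-fold (0.823 to 1.75) lower in cluster 3 of 5% pdRBC. Within cluster 1 in place of all barcodes, 68 genes were called higher and 119 lower.

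The members of the 2 libraries were compared with each other over 4328 genes with at least 100 member UMIs. A gene was called at 1.5-fold with an interval leaving out 1. By this rule 251 genes (5.8%) were higher in 5% pdRBC members and 97 (2.24%) lower. The filter sums the members of both libraries, which held 1853137 UMIs in 5% pdRBC and 843046 in hRBC. A gene high in 5% pdRBC members thus passes it more easily, so these counts do not compare the 2 directions. At a minimum of 500 UMIs per gene they were 24 and 20. In the remaining barcodes 207 of 10492 genes (1.97%) were higher and 83 (0.791%) lower. Members (64 and 150 barcodes) and remaining barcodes (705 and 1219) differ in number and in the genes measured. These shares therefore do not compare the extent of the difference. Centred on the members' median log2 fold of 0.04, the members' counts were 206 and 139. Without cluster 3, which holds 41.3% of the 5% pdRBC and 9.38% of the hRBC members, they were 113 and 71.

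Immediate early genes were higher in 5% pdRBC members, as they were in the rest. Of 13 measured in members 9 were called higher and none lower, against 5.8% and 2.24% of all 4328 genes. The median log2 fold was 0.88 in members and 0.80 in the remaining barcodes. EGR1, a zinc-finger transcription factor, stood at 16.6 CPM in hRBC and 125 CPM in 5% pdRBC members (7.29-fold, 4.40 to 14), and was 7.59-fold (6.06 to 9.74) higher in the rest. ZFP36, whose protein hastens the decay of cytokine mRNAs, was 4.73-fold (2.91 to 8.70) higher in members and 3.70-fold in the rest, and FOS 3.27-fold (2.42 to 4.62) and 3.93-fold. KLF4, a shear-responsive transcription factor, stood at 96.1 and 277 CPM in members (2.87-fold, 2.28 to 3.69) and was 1.76-fold (1.60 to 1.93) higher in the rest. HDAC9, a histone deacetylase, stood at 40.3 and 214 CPM (5.23-fold, 3.73 to 7.76), against 1.61-fold (1.48 to 1.76) in the rest. For TMEM158 the folds were 3.04 (1.92 to 5.34) and 1.26 (1.04 to 1.53), and for ENTPD6, an ectonucleotidase family gene, 4.38 (2.32 to 10.4) and 1.1 (0.935 to 1.30).

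Antioxidant, ferritin and noncoding RNAs were compared in the same way. SRXN1 stood at 335 CPM in hRBC and 585 CPM in 5% pdRBC members (1.75-fold, 1.53 to 2.0), against 1.02-fold (0.965 to 1.07) in the rest, and MIR31HG was 1.86-fold (1.54 to 2.28) higher in members against 1.01-fold in the rest. PTHLH was 2.06-fold (1.45 to 3.05) higher in members and 1.02-fold lower in the rest. FTL was 1.37-fold (1.36 to 1.39) higher in members and 1.17-fold in the rest. OSGIN1 was at 103 and 99.8 CPM (1.04-fold lower, 0.792 to 1.34) and RGS4 at 259 and 202 CPM (1.28-fold lower, 1.08 to 1.52). Whether members and remaining barcodes differed in these folds was not tested, and the members' makeup by cluster differed between the libraries.

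Other genes were lower in 5% pdRBC members, and their number depends on the filter given above. LINGO1, a membrane protein gene known from neurons, stood at 157 and 19.4 CPM (7.98-fold lower, 5.54 to 12), as in the rest (8.86-fold lower, 7.70 to 10.3). TNFRSF6B was 2.23-fold (1.58 to 3.15) lower in members and 2.07-fold in the rest. KRT18 and KRT7, keratins of simple epithelia that HUVECs also express, were 2.10-fold (1.76 to 2.52) and 2.6-fold (2.10 to 3.23) lower in members, and 1.4- and 1.21-fold lower in the rest. CCL2, the monocyte chemokine, stood at 170 and 64.2 CPM (2.64-fold lower, 2.06 to 3.40) in members but was 1.47-fold (1.33 to 1.62) higher in the rest, with 40.6% and 37.0% of its member UMIs from 1 barcode in each library. CYBA, a subunit of NADPH oxidases, was 2.48-fold (1.64 to 3.75) lower in members and 1.14-fold in the rest, and SOX18, an endothelial transcription factor gene, 1.98- and 1.60-fold.

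**Figure D5:**
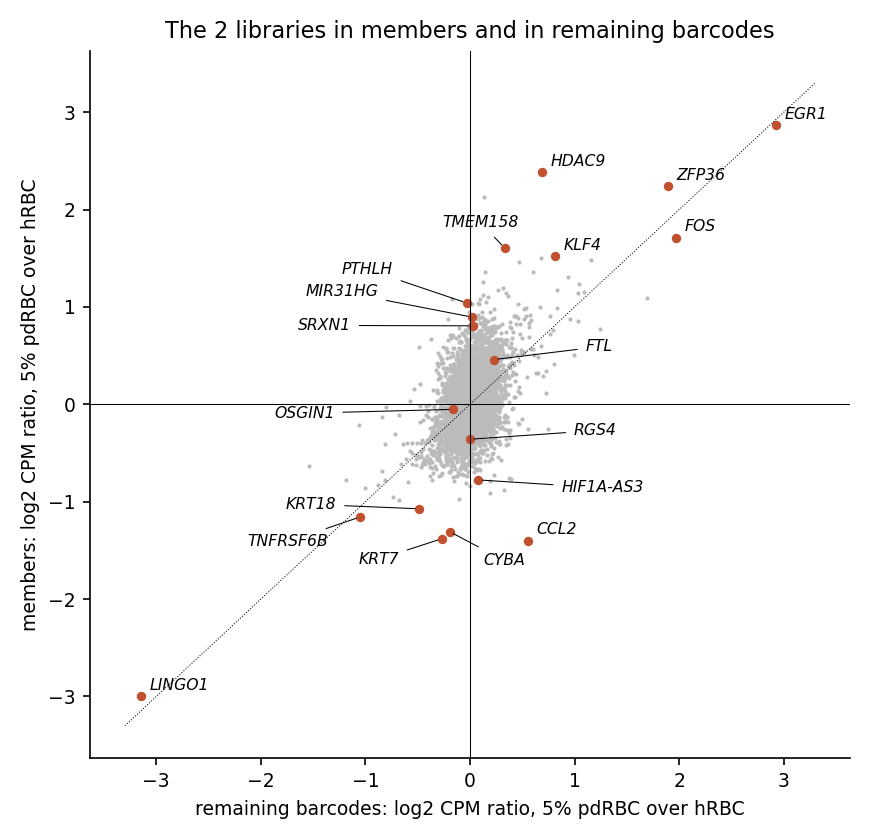
Log2 CPM ratio, 5% pdRBC over hRBC, in remaining barcodes (x axis) and in members (y axis), for genes with at least 100 member UMIs; the dotted line is equality. EGR1, FOS and LINGO1 lie near the line, HDAC9 and TMEM158 above it, and CCL2 below it, with opposite signs in members and rest.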

How the data were processed

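Single-cell RNA of HUVECs was measured in 2 libraries, hRBC and 5% pdRBC. The deposited files hold the authors' UMI counts per gene and barcode for 36601 features. Per the file headers they were made with Cell Ranger 7.0.0, and the submitters' processing notes name GRCh38. Not given in the sources used here were the annotation release, the use of strand and later filters. Gene positions come from GENCODE 29.

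The members and gene lists were chosen with earlier results of these data known. Member and remaining UMIs were summed per library and scaled here to CPM. Folds have 0.5 UMI added to each sum and an exact Clopper-Pearson 95% interval of the split, which covers counting error only. Calls use these folds. Where a bound is given, a gene at 0 UMIs is held at a floor of 3 counts per library. A list's median is over the mean log2 fold of both libraries. Named genes, without mitochondrial, ribosomal, LINC and clone-named genes, are the 15 highest and 15 lowest in members by the smaller of both libraries' folds at 20 or more CPM, up to 4 per list for 35 lists, a fixed set of iron and NRF2 genes, and 8 genes each way between the libraries' members. NFE2L2, KEAP1, BACH1, CDH5, LOX, MIR22HG, JUN and JUNB were chosen after their values were seen. One gene that the rule names is not reported here.

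Clusters used Scanpy 1.11.5 and python-igraph 0.11.9 (without HMOX1, 2000 variable genes, 30 principal components, 15 neighbours, Leiden resolution 0.5). No doublet caller was run and no barcode was removed as a doublet. Sums and intervals used NumPy 2.4.6, SciPy 1.17.1 and pandas 2.3.3. The fold calculation was tested on simulated data.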

Additional observations from a re-analysis of the deposited data

Results flagged for a closer look

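For 5 of the genes named by rule, members differed from the remaining barcodes in opposite directions in the 2 libraries with both intervals leaving out 1, and the difference between the libraries was not tested. CCL2, the monocyte chemokine, had a log2 fold of 1.34 in hRBC and -0.61 in 5% pdRBC, with 1 barcode giving 40.6% and 37.0% of the member UMIs. KRT7, a keratin, had 0.55 and -0.56, with 1 barcode giving 16.1% and 37.0%, and 0.86 and -0.72 within cluster 1. CYBA, an NADPH oxidase subunit, had 0.56 and -0.56. HDAC9, a histone deacetylase, had -0.97 and 0.73, but -0.84 in hRBC and -0.99 in 5% pdRBC within cluster 1 and -0.15 within cluster 3 of 5% pdRBC. ENTPD6 had -1.22, on 9 member UMIs, and 0.77.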

How the results depend on the processing

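Alternatives changed the number of called genes, while most called named genes kept their sign. With the top 5% of barcodes as members 349 genes were higher in members and 122 higher in 5% pdRBC members; with the top 20%, 114 were higher and 305 lower in members. At a minimum of 20 UMIs per gene the counts were 545 higher and 843 lower in members, and 475 higher and 251 lower in 5% pdRBC members, and at 500 UMIs they were 108, 169, 24 and 20. Within cluster 1, an alternative chosen after seeing the data as was leaving out cluster 3, 68 genes were higher and 119 lower in members and 76 higher in 5% pdRBC members; without cluster 3 the last count was 113 and the ratio of shares 0.956. The minimum of UMIs per gene does not enter a gene's fold, so the alternatives at 20 and 500 UMIs could not change a sign. Of 1312 values for 82 called named genes under 16 alternatives, these included, 1294 kept their sign. These genes were called for folds of the same sign in these barcodes, and several alternatives keep the same members. The count is therefore no independent check of direction. The 18 that did not, as mean log2 folds, were CLSPN 0.055, GINS2 0.45, TPX2 0.57 and AURKB 1.26 without barcodes rich in cell division UMIs; EGR1 -0.18 without cluster 3; and within cluster 1 C11orf96 -0.28, ICAM1 -0.28, EGR1 -0.28, ANGPTL4 -0.18, DIAPH3 0.18, GINS2 0.46, TPX2 0.23, CYP1A1 0.38, MKI67 0.25, UBE2C 0.27, AURKB 0.64, RRM2 0.38 and GJA4 1.43. The cause was not tested. The mitotic list's median went from -2.10 to 0.59 without barcodes rich in cell division UMIs and to 0.33 within cluster 1, and that of immediate early genes from 0.65 to 0.18 without cluster 3. Of 496 list medians 65 moved by more than the gap between the libraries' medians.

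Of the 223 genes higher in members, 116 were also called after thinning to 5000 UMIs, 176 with every barcode weighted equally and 176 with the top 10% taken within each library. For the 531 lower genes these numbers were 253, 445 and 427. No paired analysis was possible because each treatment is 1 library with no replicate number to share. The 843046 UMIs of hRBC members and 1853137 of 5% pdRBC members limit what can be seen: 3 counts correspond to 3.56 and 1.62 CPM, so that a difference in rarer genes was not detectable at this depth.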
